A study of Mus musculus with 7 samples.

Results

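Interferon response genes were followed in nuclei of mouse primary visual cortex (V1) that had received a pooled viral vector. The 40 genes examined are a fixed list of genes known to be induced by interferons, and the rule uses no measured value. The list was, however, chosen with earlier results of these data known. All 40 were present among the 25871 gene columns of the count tables. The nuclei came from male C57BL/6J mice of 6 to 10 weeks, each given 2 injections of 800 nL of an AAV9 library in V1. That library (PESCA) carries many candidate regulatory elements, each paired with several barcodes of its own in the transcripts it drives. Vector transcripts can thus be counted beside a nucleus's own RNA. Per the study, the injected cortex was dissected 12 days after injection. The single-nucleus RNA was deposited as 10 libraries of 1 sample, numbered as 2 sets of 5. The study's methods give 5 libraries for each of 2 animals, but no label says that a library set is an animal. An RNA sample from uninjected cortex was not analysed here, so no level below can be set against uninjected tissue, and nuclei or libraries of 1 sample are not replicates of a treatment. Accessible chromatin (ATAC-seq) came from separate mice of 6 to 12 weeks, for which no injection is described. In these, Sst-IRES-Cre, Pv-Cre or Vip-IRES-Cre switched on the nuclear tag SUN1-2xsfGFP-6xMYC, so that tagged nuclei are those with a history of that Cre, with 2 samples per neuron type.

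Interferons are secreted proteins that warn cells of infection. Type I interferons bind the Ifnar1 and Ifnar2 receptor chains and activate ISGF3, a complex that holds Stat2 and Irf9 and binds interferon-stimulated response elements (ISRE). Interferon gamma, made by T and NK lymphocytes, signals through Ifngr1 and Ifngr2, acts at GAS elements and induces Irf1, guanylate-binding proteins and antigen-processing genes. Among the 40 genes, Ddx58 (RIG-I), Ifih1 (MDA5), Dhx58 and Zbp1 encode sensors of nucleic acid. Isg15 is a ubiquitin-like modifier and Usp18 removes it. The Ifit, Oas and Mx families and Rsad2 (viperin) act against viral RNA or virus particles, Bst2 (tetherin) and the Ifitm proteins act at membranes, and Psmb8, Psmb9, Tap1 and Tap2 prepare peptides for MHC class I. In the brain, microglia and vascular cells are known for strong interferon programmes.

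Promoter sequences show the elements these pathways read. RefSeq promoters (GRCm38.p6, 250 bases before to 50 bases after a gene start) were found for 29 of the 40 genes, in 33 windows. The ISRE core GAAANNGAAA, searched on both strands with overlapping matches allowed, was present in 14 of these 33 windows (42.4%) against 3.44% of all 32851 windows. The GAS core TTCNNNGAA, which reads the same on both strands, was present in 8 of 33 (24.2%) against 8.30% of all windows. A match describes letters only and is not evidence of binding. The windows below belong to genes whose levels are described later, with the ISRE match, or the GAS match for Irf1, in capitals and the sequence in the direction of the gene.
Isg15, chr4:156200871-156200900, minus strand: gtagGAAAAGGAAACCGAAACAGAAAatag
Stat2, chr10:128270266-128270295, plus strand: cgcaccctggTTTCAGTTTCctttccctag
Ifit1, chr19:34640785-34640814, plus strand: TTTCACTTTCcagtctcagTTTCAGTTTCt
Bst2, chr8:71537580-71537609, minus strand: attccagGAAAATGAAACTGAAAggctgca
Rsad2, chr12:26456553-26456582, minus strand: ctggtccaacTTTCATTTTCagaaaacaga
Gbp2, chr3:142620594-142620623, plus strand: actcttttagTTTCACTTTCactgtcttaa
Gbp7, chr3:142530273-142530302, plus strand: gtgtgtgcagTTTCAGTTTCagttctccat
Irf1, chr11:53769914-53769943, plus strand: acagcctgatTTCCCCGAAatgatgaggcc
The Isg15 window held 3 overlapping ISRE matches, and the Ifit1 and Bst2 windows held 2 each. Neither core was found in the windows of Ifi44, Oasl2, Irf7, Irf9, Cmpk2, Tap1, Psmb9, Xaf1, Parp12, Dtx3l or Trim25. Promoters of Oas2, Mx1, Mx2, Usp18, Dhx58, Rtp4, Ifi27, Parp9, Parp14, Zbp1 and Tap2 were not analysed here.

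Of 47348 barcodes, 32335 had over 200 non-vector UMIs (unique molecules) and were kept as nuclei, with a median of 712 UMIs. Libraries held 2457 to 3629 kept nuclei and 2496224 to 3041931 non-vector UMIs. Mitochondrial genes took 0.307 to 0.335% of UMIs in library set 1 and 0.146 to 0.169% in library set 2. Among kept nuclei, 5476 barcode names occurred in more than 1 library. Nuclei were assigned to cell types by marker gates, which needed at least 3 UMIs of a marker list from 2 of its genes and 2/3 of all marker UMIs. The gates took 14223 nuclei (44.0%), and 871 nuclei with mixed markers were left out. Each gate's own markers exceeded every other list, as the gate requires, at 41.5 UMIs per 10000 in excitatory-gated nuclei and 205 in microglia-gated nuclei. The microglia gate also admits macrophages. Exactly 3 marker UMIs were held by 23.7% of excitatory-gated, 25.7% of lymphocyte-gated, 10.7% of microglia-gated and 2.11% of endothelial-gated nuclei. Microglia marker RNA was at 15.7 per 10000 in lymphocyte-gated nuclei. The summed level of the 40 genes per 10000 non-vector UMIs is called the interferon score below.

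The summed level of the interferon response genes was highest in microglia, vessels and other non-neuronal nuclei. The 32335 nuclei held 21008 UMIs of the 40 genes, a score of 7.38 (95% exact Poisson interval 7.28 to 7.48), and 27.7% of nuclei had at least 1 such UMI. The score was 66.3 in 393 microglia-gated nuclei, 57.2 in 284 endothelial-gated, 43.0 in 70 lymphocyte-gated, 31.5 in 209 fibroblast-gated, 23.6 in 1140 astrocyte-gated and 14.7 in 190 OPC-gated nuclei. It was 7.13 in 1507 oligodendrocyte-gated nuclei, 3.89 in 8422 excitatory-gated and 3.78 in 1984 inhibitory-gated nuclei. The 24 mural-gated nuclei had a score of 15.25. Outside the gates the score was 4.99 in 17241 ungated and 22.2 in 871 mixed-marker nuclei. By number, excitatory-gated nuclei held 4310 UMIs of the list, more than microglia-gated (1563) or endothelial-gated nuclei (2278). Relative to excitatory-gated nuclei the score was 17.0-fold higher in microglia-gated (16.1 to 18.1), 14.7-fold higher in endothelial-gated (14.0 to 15.5) and 6.08-fold higher in astrocyte-gated nuclei (5.72 to 6.45). The 3 differences had the same direction in 10 of 10 libraries, with ranges of 4.29 to 30.4, 11.7 to 22.9 and 2.23 to 12.7. Intervals here and below cover counting error only, and with 1 sample no test between nuclei was made. Brought to 300 UMIs, 68.5% of endothelial-gated and 57.6% of microglia-gated nuclei had a UMI of the list, against 10.1% of excitatory-gated nuclei; without equal depth the shares were 87.0%, 66.2% and 32.0%. This step left out 39, 142 and 151 shallower nuclei.

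**Figure D1:**
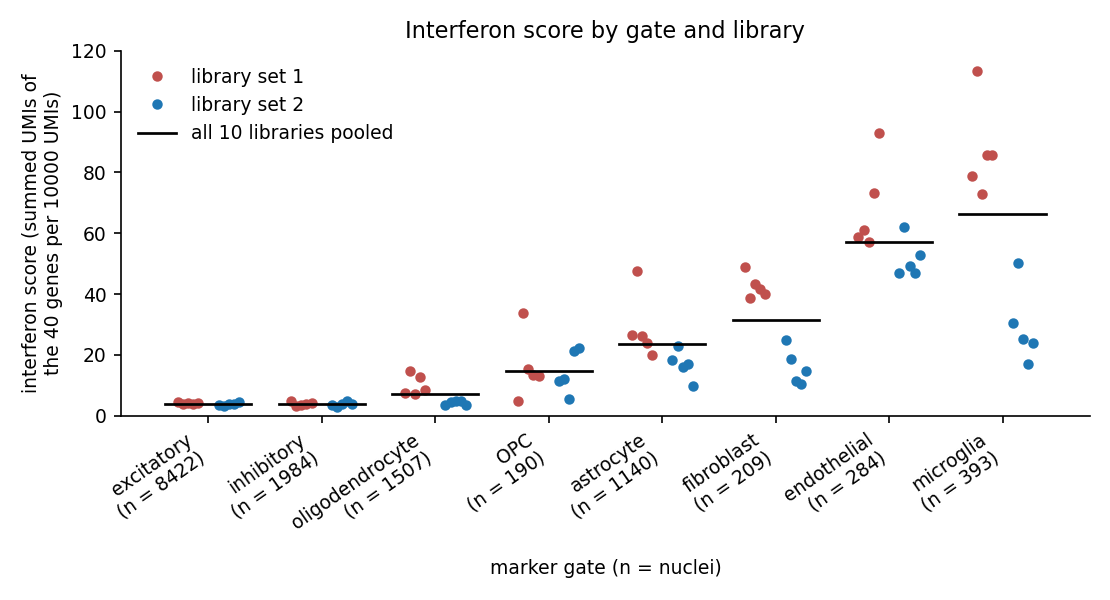
Interferon score (summed UMIs of the 40 genes per 10000 non-vector UMIs, vertical axis) in the marker gates, without the lymphocyte and mural gates. Each point is a library, with library set 1 in red and library set 2 in blue, and a black line marks the pooled value. Neuronal points lie between 2.76 and 4.86, endothelial points between 46.9 and 92.9, and the microglial points of the 2 sets do not overlap.

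In microglia-gated nuclei 35 of the 39 genes that could be compared were at least 2-fold higher than in all other gated nuclei. Over all 15623 genes compared (20 or more UMIs in gated nuclei), 15.4% were that much higher. The median fold of the 39 genes was 9.32 and that of all genes 0.647. Oas1a had too few UMIs to be compared in any gate. The highest folds belonged to Zbp1 (47.0, 29.1 to 75.1, 33 UMIs), a sensor of Z-form nucleic acid, and to the immunoproteasome subunits Psmb8 (42.8, 32.4 to 56.4) and Psmb9 (35.2, 22.7 to 54.0). Irf7, the transcription factor that amplifies type I interferon production, was 28.7-fold higher (20.8 to 39.1), Mx1 23.9-fold (12.3 to 44.2) and Rtp4 22.1-fold (15.8 to 30.4). Psmb8 was seen in 10 of 10 libraries, at 0.519, 3.48 and 5.56 UMIs per 10000 as lowest, median and highest level. Zbp1 was seen in 5 libraries, all of set 1, with a highest level of 2.88. Irf9 (1.47-fold), Mx2 (1.39-fold), Cmpk2 (1.91-fold) and Ifi27 (0.501-fold) were the genes that did not reach 2-fold. With library set 2 alone the count was 28, for which no share of all genes is given here.

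Endothelial-gated nuclei carried the list more evenly across libraries. Here 37 of 39 genes were at least 2-fold higher than in the other gated nuclei, against 16.5% of all genes, with a median fold of 8.95. Ifitm3, which restricts virus entry at membranes, was 28.7-fold higher (24.9 to 32.9), with levels of 5.44, 9.29 and 16.8 per 10000 as lowest, median and highest library. Ifi44 was 23.1-fold higher (16.9 to 31.4), Gbp3 22.8-fold (17.8 to 29.0), Ifi35 22.2-fold (11.7 to 41.0), Irf7 20.7-fold (15.2 to 27.9) and Rsad2 19.3-fold (14.8 to 24.9). Ifitm3, Ifi44, Gbp3, Irf7 and Rsad2 were detected in all 10 libraries. Dtx3l was at 1.17-fold (0.498 to 2.33), and Dhx58 had 0 UMIs in this gate and 38 in the other gated nuclei. Mural marker genes reached 59.9 per 10000 in these nuclei, and the part of mural RNA in the levels was not tested. Mitochondrial genes took 1.62% of UMIs here, against 0.0814% in excitatory-gated nuclei.

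Astrocyte-gated nuclei carried a narrower set, with 23 of 39 genes at least 2-fold higher against 11.6% of all genes. Tap1, a subunit of the peptide transporter of antigen presentation, was 13.7-fold higher (10.8 to 17.3) and Gbp2, an interferon-induced GTPase, 13.1-fold (10.8 to 15.8). Rsad2 was 9.31-fold and Ifit3 8.41-fold higher. Irf9 (0.501-fold, 0.332 to 0.728) lay below the other gates. Fibroblast-gated nuclei had 28 of 39 genes at least 2-fold higher (18.4% of all genes), led by Ifitm2 at 14.6-fold (9.58 to 21.5). The 70 lymphocyte-gated nuclei had 26 of 39 (16.3% of all genes), led by Psmb8 at 37.2-fold (22.5 to 58.4) and Psmb9 at 31.4-fold (13.2 to 64.5). OPC-gated nuclei had 12 of 39 (15.1%) and oligodendrocyte-gated nuclei 2 of 39 (6.96%, Usp18 and Ifi27). The minimum of 20 UMIs was over all gated nuclei together. The whole list had 107 UMIs in OPC-gated and 186 in lymphocyte-gated nuclei, so many calls in these 2 gates rest on few UMIs. The groups of genes differed in weight between gates: antigen-processing genes gave 28.5% of the score in lymphocyte-gated nuclei, 14.7% in microglia-gated and 6.01% in endothelial-gated nuclei. The guanylate-binding and Mx GTPases gave 21.4% in astrocyte-gated nuclei and 5.61% in excitatory-gated nuclei.

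**Figure D2:**
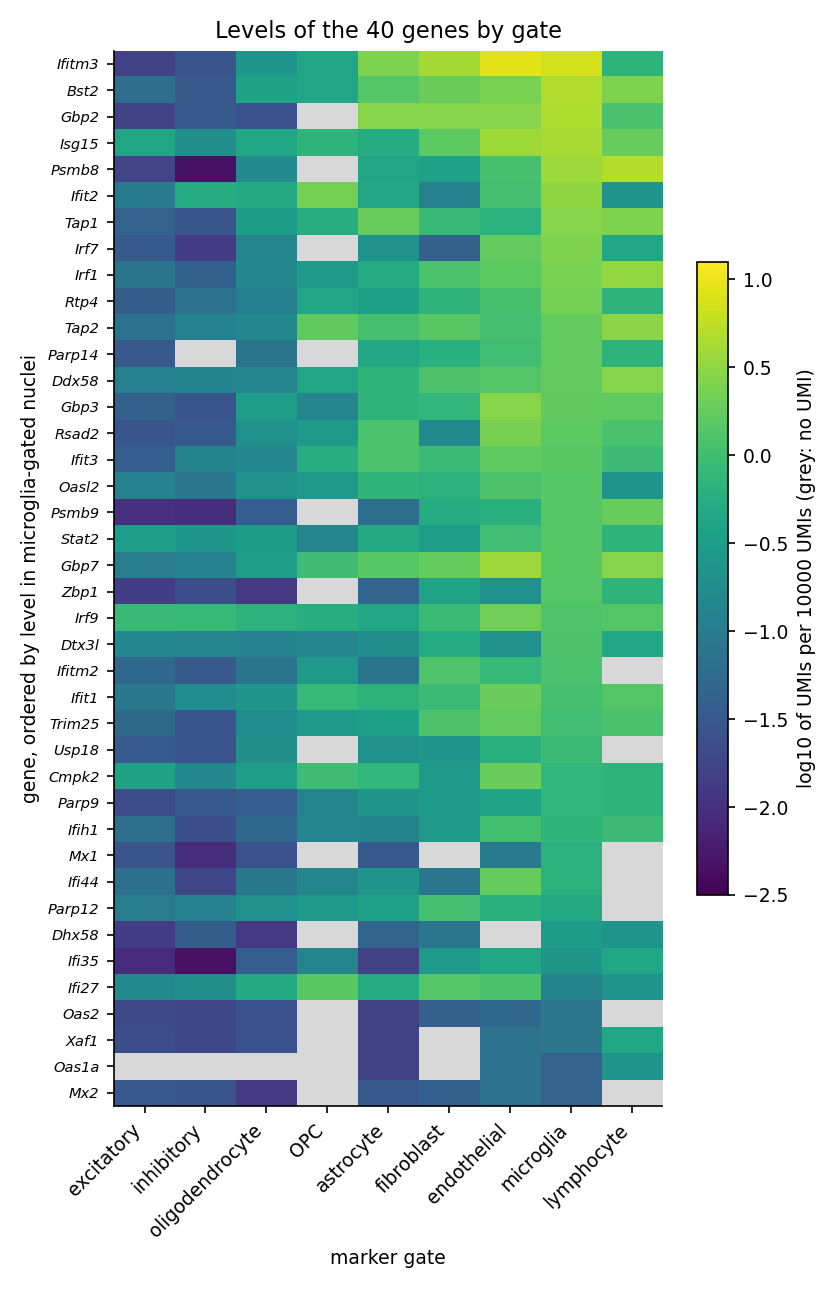
Level of each of the 40 genes (rows, ordered by level in microglia-gated nuclei) in 9 marker gates (columns), as log10 of UMIs per 10000 non-vector UMIs, with grey for no UMI. Most rows are brightest in the endothelial and microglia columns, while Irf9 and Isg15 are among the brighter rows of the 2 neuronal columns.

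In excitatory-gated nuclei the summed level of the list was below that of the smallest barcodes. None of the 39 genes was at least 2-fold higher in excitatory-gated nuclei (10.4% of all genes) and 1, Ifit2, in inhibitory-gated nuclei (5.70% of all genes). Barcodes with 200 or fewer UMIs, which can hold free RNA in place of a nucleus, had a score of 7.18 at a median of 129 UMIs, and carried more oligodendrocyte and microglia marker RNA (59.1 and 11.6 per 10000) than kept nuclei (15.1 and 3.27). The score of excitatory-gated nuclei was 0.542 times that level (0.509 to 0.577). Of 38 genes with a UMI in those barcodes, 5 were higher in excitatory-gated nuclei, against 50.5% of the 19068 genes with a UMI there. The interval lay below 1 for 24 of the 38 (14.2% of all genes) and above 1 for 2 (17.5% of all genes), Irf9 (1.29-fold, 1.07 to 1.57) and Dtx3l (2.10-fold, 1.19 to 4.02). Irf9 overlaps Rnf31 on the same strand and Dtx3l overlaps Parp9 on the other, so their UMIs may not all be their own. Stat2 was at 1.06-fold, Isg15 at 0.904-fold and Cmpk2 at 0.799-fold. Dhx58 had 16 UMIs in excitatory-gated nuclei and 0 in those barcodes. Microglia, astrocyte and oligodendrocyte marker RNA was at 0.894, 0.616 and 0.641 per 10000 in excitatory-gated nuclei, against 11.6, 12.2 and 59.1 in those barcodes. The part of free RNA in the neuronal levels of the list was not tested.

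The 5 genes with most UMIs over all nuclei were Irf9 (2608), Isg15 (1510), Ifitm3 (1429), Cmpk2 (1180) and Stat2 (981). Irf9, the DNA-binding subunit of ISGF3, was at 0.733, 0.857 and 1.3 per 10000 as lowest, median and highest library. Isg15 was at 0.398, 0.541 and 0.633, Ifitm3 at 0.370, 0.456 and 0.772, Cmpk2 at 0.367, 0.406 and 0.473 and Stat2 at 0.241, 0.337 and 0.469. These genes divided by cell type. Irf9 had 967 of its UMIs in excitatory-gated nuclei, at 0.873 per 10000 against 0.876 in the other gated nuclei (0.996-fold, 0.886 to 1.12). Ifitm3 had 18 there, at 0.0163 against 1.79 (0.00908-fold).

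Ifit2, which binds viral RNA and restrains translation, stood apart among inhibitory neurons. It was 2.30-fold higher in inhibitory-gated nuclei than in the other gated nuclei (1.84 to 2.86, 114 UMIs in 10 of 10 libraries). In 653 nuclei that carried Sst its level was 1.16 per 10000 (0.920 to 1.43), with 0.386, 1.03 and 1.94 as lowest, median and highest library. In 245 Pvalb nuclei it was 0.327 (0.169 to 0.570) and in 318 Vip nuclei 0.262 (0.105 to 0.539). The counting intervals of SST and of the other types did not overlap, but the libraries did, with a highest library of 1.59 in PV and 0.671 in VIP. Its level in the barcodes of 200 or fewer UMIs was 0.181. The whole score was 5.01 in SST, 3.05 in PV and 2.51 in VIP nuclei, and mean vector UMIs were 50.9, 39.9 and 17.8 in the same order. Ifit2 gave 83 of the 360 UMIs of the list in SST nuclei. The study chose the elements for accessibility in SST neurons and enriched vector transcripts by PCR. Vector UMIs therefore measure expression and not vector load alone. The part of vector transcripts in the order of the scores was not tested.

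Interferon response transcripts of microglia were higher in library set 1 than in set 2, and the ratio in excitatory neurons was close to 1. The microglial score was 87.7 in set 1 (246 nuclei) and 28.9 in set 2 (147 nuclei), a ratio of 3.03 (2.65 to 3.49), and the libraries did not overlap, with the lowest of set 1 at 73.0 and the highest of set 2 at 50.3. In excitatory-gated nuclei the scores were 4.02 and 3.78, a ratio of 1.06 (1.00 to 1.13), with libraries of 3.74 to 4.40 and 3.31 to 4.39 that overlapped. The ratio was 2.48 in fibroblast-gated (2.10 to 2.93), 2.32 in oligodendrocyte-gated (1.93 to 2.79), 1.57 in astrocyte-gated (1.41 to 1.76) and 1.28 in endothelial-gated nuclei (1.18 to 1.39). Fibroblast and oligodendrocyte libraries did not overlap between the sets either, while endothelial and astrocyte libraries did (astrocyte lowest 20.0 in set 1 and highest 23.0 in set 2). Animal, preparation and sequencing cannot be told apart in this comparison.

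In microglia-gated nuclei 18 of 27 genes compared were at least 2-fold higher in set 1, against 10.5% of the 2727 genes compared, and 0 were as much lower (7.19% of all genes). Genes compared had 20 or more UMIs in both sets together. Of the 18, only Ifitm3 (24 UMIs) reached 20 UMIs in set 2, and the others passed through set 1, where they were higher. Of the 13 genes with fewer than 20 UMIs in both sets together, 6 were at least 2-fold higher, 4 in between, and 3 had UMIs only in set 1. Gbp2 was at 6.87 per 10000 in set 1 (103 UMIs) and 0.47 in set 2 (4 UMIs), 14.7-fold higher (5.58 to 55.1), although the lowest library of set 1 (2.39) lay below the highest of set 2 (2.51). Parp14, an ADP-ribosyltransferase, was at 2.53 and 0.233 (10.9-fold, 2.81 to 93.0). Gbp7 (9.44-fold), Irf1 (7.44-fold) and Tap1 (6.87-fold) followed. Irf1 lay between 2.16 and 5.68 in the set 1 libraries and between 0 and 1.88 in those of set 2, without overlap. Tap1 lay between 3.39 and 4.78 against 0 to 1.26. Zbp1 had 33 UMIs in set 1 and 0 in set 2, at least 6.29-fold higher against a floor of 3 counts over the set. Trim25 (0.890-fold), Tap2 (1.38-fold) and Psmb9 (1.43-fold) differed least, and their intervals included 1.

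**Figure D3:**
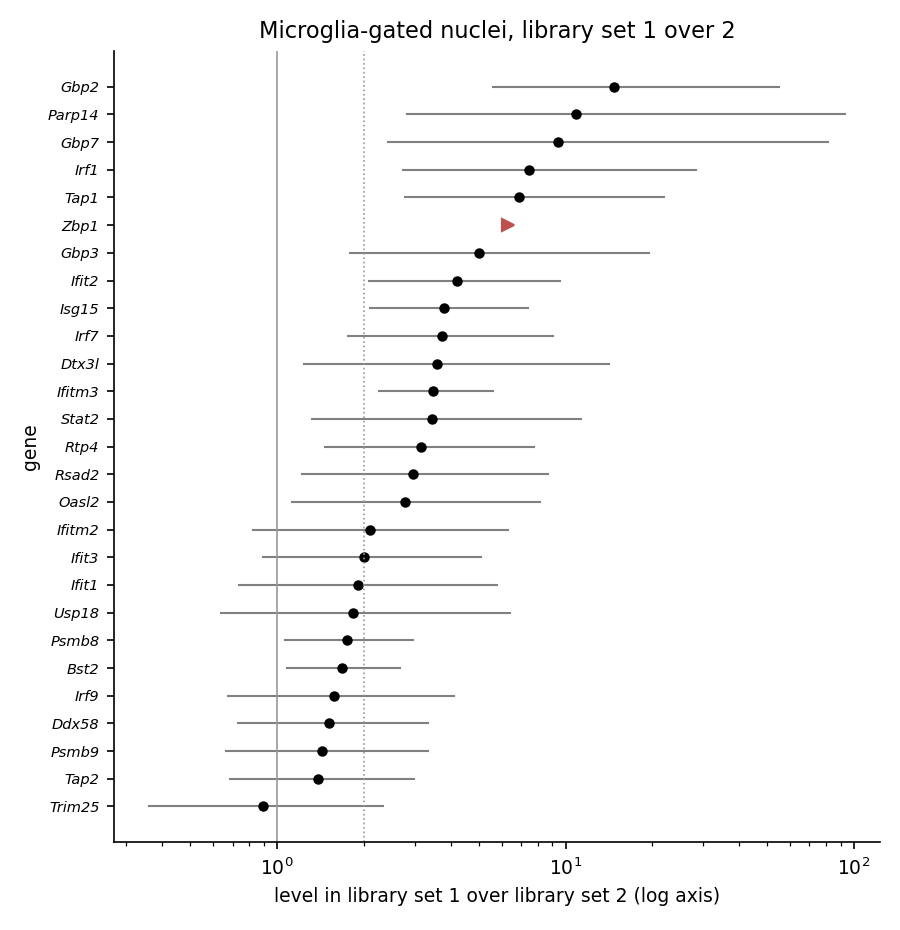
Level of each gene compared in microglia-gated nuclei in library set 1 over library set 2 (horizontal log axis), with exact 95% intervals for counting error as lines, a solid line at 1 and a dotted line at 2. The red triangle is the lower bound for Zbp1. Gbp2 is highest at 14.7 and Trim25 lowest at 0.890.

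In the other gates Gbp2 was again among the genes higher in set 1. It was 3.40-fold higher in endothelial-gated (2.25 to 5.25), 3.89-fold in fibroblast-gated (2.07 to 7.96) and 2.50-fold in astrocyte-gated nuclei (1.74 to 3.65). Counts of genes at least 2-fold higher in set 1 were 10 of 24 in astrocyte-gated nuclei (4.44% of all genes), 9 of 16 in fibroblast-gated (7.95%, and 0 as much lower against 5.53%) and 5 of 10 in oligodendrocyte-gated nuclei (3.65%), where 0 were as much lower (2.98%). In endothelial-gated nuclei they were 2 of 30, Gbp2 and Ifit2 (4.35% of all genes), and 0 were as much lower (5.53% of all genes). The genes counted as higher had at most 12 UMIs in set 2 in fibroblast-gated (Gbp2) and 10 in oligodendrocyte-gated nuclei (Isg15). In astrocyte-gated nuclei they had at most 19 there (Gbp7), apart from Gbp2 with 40. In these gates most such genes therefore passed the minimum for both sets together mainly through set 1, where they were higher. Their counts are a description of the genes that passed. Irf9 was 0.476-fold in astrocyte-gated nuclei (0.201 to 1.08), the only gene of the 24 compared as much lower in set 1 in that gate (2.96% of all genes). Parp9, at 0.490-fold with 6 and 9 UMIs, had too few UMIs to be compared. In excitatory-gated nuclei 3 of 33 genes were at least 2-fold higher (1.5% of all genes) and 0 as much lower (0.84% of all genes), with Rtp4 at 2.78-fold, Ifit3 at 2.38-fold and Ifit2 at 2.10-fold. Gbp2 had 19 UMIs in set 1 and 0 in set 2 there, too few to be compared. Irf9 was at 0.795-fold in excitatory-gated nuclei (0.698 to 0.906). In inhibitory-gated nuclei Ifit1, at 2.59-fold (1.29 to 5.47), was the 1 gene of 13 at least 2-fold higher (1.55% of all genes), and 0 were as much lower (2.11% of all genes).

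Pathway genes outside the list were counted in the same 2 library sets. Of 10 interferon gamma targets compared in microglia-gated nuclei, 7 were at least 2-fold higher in set 1 (10.5% of all genes) and 0 lower (7.19% of all genes). The 7 had at most 6 UMIs in set 2 (Igtp), so they passed the minimum through set 1, where they were higher. Irgm1 and B2m, with 28 and 231 UMIs in set 2, were at 1.47-fold and 1.95-fold. The count of 7 is therefore a description of the genes that passed. The chemokine Cxcl9 was at 6.6 against 0.233 per 10000 (28.3-fold, 7.63 to 237), Cxcl10 at 7.54 against 0.47 (16.2-fold, 6.14 to 60.3, with overlapping libraries and its 4 set 2 UMIs in 1 nucleus) and the GTPase gene Igtp at 4.20 against 0.699 (6.01-fold, 2.61 to 17.0). Of 5 receptors compared, 0 were higher and 1 was lower, against the same shares of all genes. Of 18 microglia markers, 0 were 2-fold higher in set 1 and 3 were 2-fold lower, again against 10.5% and 7.19% of all genes, with a median of 0.859-fold. P2ry12 was at 3.27 against 7.69 (0.425-fold, 0.287 to 0.624) and Tmem119 at 3.20 against 6.41 (0.499-fold, 0.332 to 0.749), while Fcer1g was higher in set 1 (1.61-fold, 1.20 to 2.18) and Ctss too (1.19-fold, 1.04 to 1.37). Median depth was 454 UMIs in set 1 and 323 in set 2. The part of depth and of these marker genes in the difference was not tested.

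Ligand transcripts were nearly absent except for interferon gamma. Ifng had 55 UMIs over all nuclei, of which 47 lay in lymphocyte-gated nuclei, and those came from 4 nuclei of library set 1. Set 1 held 61 of the 70 lymphocyte-gated nuclei and set 2 held 9, in which Ifng had 0 UMIs. Type I ligands had at most 6 UMIs each, the number of Ifne, and Ifnb1 had 3. These counts allow no statement on the cells that make them. Of the receptors, Ifngr1 was at 4.33 per 10000 in microglia-gated and 0.137 in excitatory-gated nuclei, and Ifnar2 at 2.08 in endothelial-gated and 0.201 in excitatory-gated nuclei, while Ifnlr1 had 45 UMIs in all and 0 in microglia-gated and astrocyte-gated nuclei. Of 21 other induced genes compared, 18 were at least 2-fold higher in microglia-gated nuclei than in the other gated nuclei and 0 as much lower (15.4% of all genes higher and 21.0% lower). In endothelial-gated nuclei 15 were higher and 2 lower (16.5% and 28.5% of all genes), and in astrocyte-gated nuclei 7 were higher and 4 lower (11.6% and 25.2% of all genes).

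Few nuclei held many of the UMIs. Only 298 nuclei (0.922%) had 10 or more UMIs of the list, 196 in library set 1 and 102 in set 2. They made up 27.5% of endothelial-gated nuclei (34 in set 1, 44 in set 2), 11.7% of microglia-gated nuclei (44 and 2) and 1.93% of astrocyte-gated nuclei (17 and 5). In excitatory-gated nuclei there were 8 of 8422. The mixed-marker nuclei outside the gates held 102 of the 298 (63 and 39), 11.7% of such nuclei, and doublets were not called. The highest was an endothelial-gated nucleus of library 1-4 with 133 UMIs from 30 of the 40 genes, and the next an astrocyte-gated nucleus of library 1-2 with 100 UMIs from 28 genes. The 114 astrocyte-gated nuclei with most UMIs of the list held 68.1% of that gate's UMIs of the list, and 60.5% of the gate had none. The 28 such endothelial-gated nuclei held 45.7%, and 13.0% had none. Without the nuclei of 10 or more UMIs the ratio to excitatory-gated nuclei was 8.95 for microglia and 8.43 for endothelium.

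Excitatory-gated nuclei with many vector transcripts had a higher summed level of the 40 genes than those with none. Nuclei of at least 500 UMIs were brought to 500 UMIs in expectation. The score was 2.79 in 753 nuclei without a vector UMI (2.45 to 3.16) and 4.61 in 1508 nuclei with over 30, a ratio of 1.65 (1.44 to 1.90). Intervals at equal depth were scaled from the UMI counts before thinning (249 and 1225 here). They are approximate for the score at equal depth and can be too narrow. It was 3.61, 3.52, 4.13, 4.27 and 5.88 in nuclei with 1 to 3, 4 to 10, 11 to 30, 31 to 100 and over 100 vector UMIs. The ratio was above 1 in 9 of 10 libraries, with 0.896 in library 2-1 as lowest, 2.41 as median and 5.64 in library 1-3 as highest. It was 2.81 in set 1 and 1.3 in set 2, so its size depended on the library set. In set 1 the 195 nuclei without vector held 35 UMIs of the list. All these levels lay below the 7.18 of the barcodes with 200 or fewer UMIs.

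Of 18 genes compared, 13 were at least 1.5-fold higher in nuclei with over 30 vector UMIs, against 11.8% of the 11200 genes compared, and 0 were as much lower (8.08% of all genes). The 18 were those with 20 or more UMIs in both bins together, and 6 of them, Ifi44, Gbp7, Ifit1, Bst2, Oasl2 and Ifih1, had at most 3 UMIs without vector. Of the 13 higher genes, only Isg15 (24 UMIs) reached 20 UMIs without vector. The others passed through the bin where they were higher. Of the 22 genes with fewer UMIs, 9 were at least 1.5-fold higher, 4 as much lower (Tap2, Trim25, Parp14 and Zbp1), 4 in between, 4 had UMIs only with over 30 vector UMIs, and 1 had none. The count of 13 is therefore a description of the genes that passed. Ifi44 was at 0.150 per 10000 against 0.0120 (12.6-fold, 2.13 to 508, 41 UMIs against 1) and Gbp7 at 0.166 against 0.0265 (6.26-fold, 1.98 to 31.8, 36 against 3). Ifit1 was 5.06-fold (1.63 to 25.4), Bst2 4.78-fold (1.18 to 41.7) and Oasl2, an Oas-family gene, 4.14-fold higher (1.31 to 21.0). Ddx58, the sensor of RNA ends, was 2.92-fold (1.04 to 11.3) and Isg15 1.96-fold higher (1.27 to 3.16). Ifi44 and Oasl2 were higher in 10 of 10 libraries, and Gbp7 and Ifit1 in 9. Without vector Ifi44 had 1 UMI over all libraries, and Oasl2, Gbp7 and Ifit1 had 3 each. Most libraries were therefore compared with 0, and these library counts cannot be read as replication. The lowest folds were those of Usp18 (0.727-fold, 0.260 to 2.51), Ifit2 (0.892-fold) and Gbp3 (0.910-fold), and Irf9 was 1.17-fold (0.901 to 1.54). Pathway genes outside the list were counted at the same bins. Of 10 other induced genes compared, 2 were at least 1.5-fold higher and 1 as much lower, with a median of 0.891-fold. Of 5 interferon gamma targets 0 were higher or lower (median 0.848-fold), of 4 receptors 0 were either (median 0.917-fold), and of 4 sensors and adaptors 0 were higher and 1 was lower. Of 4 receptor kinases and STATs 1 was higher and 0 were lower (median 1.06-fold), and of 4 negative regulators 0 were either (median 1.00-fold).

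**Figure D4:**
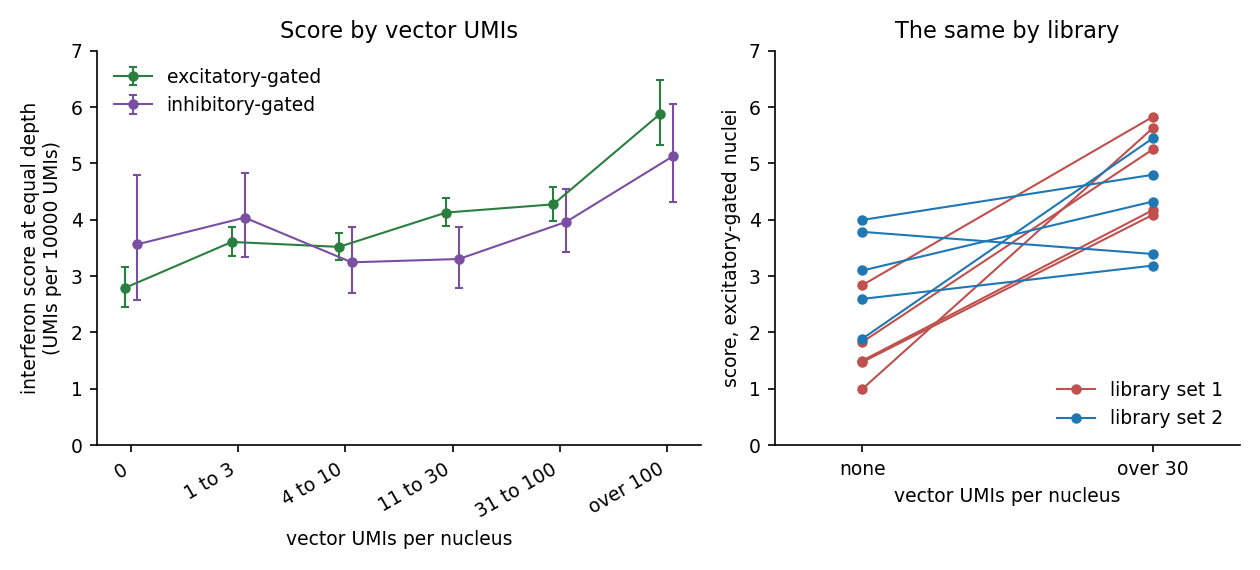
Left, interferon score at equal depth (UMIs per 10000) by vector UMIs per nucleus in excitatory-gated (green) and inhibitory-gated (purple) nuclei. Lines are 95% Poisson intervals for counting error, scaled from the counts before thinning and so approximate. Right, the excitatory-gated score without vector UMIs and with over 30, with a line per library. The excitatory score runs from 2.79 to 5.88, and library 2-1 is the line that falls.

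Marker RNA of other cell types went in different directions across these bins. Between 0 and over 100 vector UMIs, microglia marker RNA went from 1.06 to 0.908 per 10000 and astrocyte marker RNA from 0.744 to 0.462, while endothelial marker RNA went from 0.360 to 0.599. Excitatory marker RNA went from 49.8 to 34.3, and median depth before thinning from 1037 to 1872 UMIs. Mitochondrial genes went from 0.0930 to 0.0619% of UMIs. Within nuclei of 500 to 1000 UMIs, without thinning, the ratio was 1.89. The part of neuron subtype, marker RNA and mitochondrial share in the ratio was not tested. In inhibitory-gated nuclei the score was 3.56 without vector (2.58 to 4.80), 3.24 with 4 to 10 and 5.13 with over 100 vector UMIs (4.32 to 6.05). In bins of at least 50 nuclei, the score was 30.0, 28.0 and 27.7 in astrocyte-gated nuclei with 1 to 3, 4 to 10 and 11 to 30 vector UMIs, and 57.4 and 57.2 in endothelial-gated nuclei with none and with 1 to 3. It was 4.98, 6.06, 9.11 and 4.41 in oligodendrocyte-gated nuclei with none, 1 to 3, 4 to 10 and 11 to 30, and 83.6 in microglia-gated nuclei with 1 to 3. Over all kept nuclei, gated or not, the score was 8.48 without vector and 5.86 with over 100, the opposite order. Mean vector UMIs were 5.63 in microglia-gated and 20.6 in excitatory-gated nuclei.

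Chromatin at the gene starts was compared between interneuron types in the separate Cre mice. Within 1 kb of a gene start (GENCODE vM21, mm10), 44 of the deposited regions lay at 36 of the 40 genes, and Isg15, Ifi44, Ifitm3 and Oas1a had none. In 13 regions a peak was marked in all 6 samples and in 15 in none. The total of reads in regions was 1801883 to 2256073 per sample. Of 22 regions with enough reads, 7 differed between SST, PV and VIP neurons (edgeR quasi-likelihood test, Benjamini-Hochberg over 40338 regions, 5%), a share of 31.8% against 51.9% of all regions tested. DESeq2 called 2 of the 22 and 30.6% of all regions. Leaving out PV sample 1 or 2 gave 3 or 4 calls of 26 tested (34.5% and 36.1% of all regions), and leaving out VIP sample 1 or 2 gave 3 or 4 of 26 (32.9% and 28.2%). Leaving out SST sample 1 gave 10 of 25 (52.9%) and SST sample 2 gave 8 of 23 (53.9%).

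Usp18 (chr6:121245475-121246195, over the gene start) had 53 and 49 reads in PV, 26 and 31 in SST and 16 and 18 in VIP neurons, without overlap between the types (adjusted p = 0.00117, edgeR). Ifit3 had 10 and 10 reads in PV, 2 and 1 in SST and 0 and 3 in VIP (adjusted p = 0.00550, edgeR), and Ddx58 14 and 10 against 4 and 4 in SST and 3 and 5 in VIP (adjusted p = 0.0171, edgeR). These 3 regions had most reads in PV neurons. At Gbp3 VIP neurons had fewest, with 11 and 27 reads against 57 and 54 in PV and 50 and 30 in SST (adjusted p = 0.00485, edgeR). SST neurons had most at Gbp7 (31 and 39 reads against 18 and 18 in PV and 20 and 12 in VIP, adjusted p = 0.0402, edgeR), Irf9 (20 and 47 reads against 8 and 14 in PV and 16 and 26 in VIP, adjusted p = 0.0415, edgeR) and Cmpk2 (88 and 100 reads against 76 and 49 in PV and 50 and 59 in VIP, adjusted p = 0.0370, edgeR). Ifit2, whose RNA was higher in SST nuclei, had 60 and 33 reads in SST, 40 and 31 in PV and 51 and 49 in VIP, and its region was not past the threshold (adjusted p = 0.713, edgeR).

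**Figure D5:**
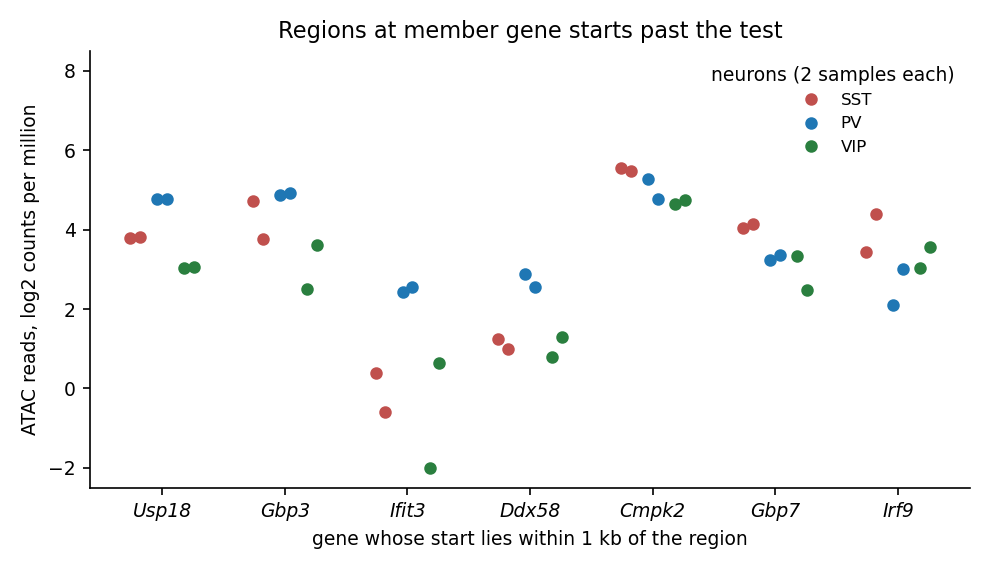
ATAC reads as log2 of scaled counts (CPM) at the 7 regions past the test, with a point per sample (2 per neuron type), SST in red, PV in blue and VIP in green. PV points are highest at Usp18, Ifit3 and Ddx58, and SST points at Cmpk2 and Gbp7.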

How the data were processed

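The members and gene lists were chosen with earlier results of these data known. The authors deposited UMI counts per gene and barcode for 10 single-nucleus RNA libraries (inDrops), with vector barcodes as separate columns. For ATAC-seq the authors deposited read counts on 323369 regions and a peak mark per sample, and the peak caller's -log10 q-values, which were not used. The submitters' processing notes list GRCm38/mm10, Trimmomatic 0.33, Subread 1.4.6-p3 and MACS2. 

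Nuclei with over 200 non-vector UMIs were kept. Genes were compared as UMIs per 10000, with exact Poisson or conditional binomial 95% intervals, and no p-value was computed over nuclei. At equal depth these intervals were scaled from the counts before thinning. No doublet caller was run, and nuclei with mixed markers were left out. Genes named were the 5 with most UMIs and, per comparison, up to 6 of highest and 3 of lowest fold among those with 20 or more UMIs. Vector columns (1164) were kept out of totals. Paralogs (Ifit, Gbp, Oas, Mx, Ifitm) may share reads and are uncertain. ATAC counts were fitted with edgeR 4.0.16 (TMM, filterByExpr, no covariate), with DESeq2 1.42.0 as an alternative, in R 4.3.3; per the study's methods, each ATAC sample came from its own animal. Replicate numbers did not pair the samples (correlations of -0.031 to 0.028). Alternatives were other gates, depths, vector bins, gene minimums, filters, and left-out libraries. Scripts were tested on simulated data. Python 3.11.15, numpy 2.4.6, scipy 1.17.1 and pandas 2.3.3 were used. Some genes of the pathway lists are not reported here.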

Additional observations from a re-analysis of the deposited data

Results flagged for a closer look

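The interferon score of astrocyte-gated nuclei in library 1-2 was 47.6 per 10000 UMIs, and the nearest library of set 1 was at 26.6. The gap was 0.762 of the range of the 5 libraries, above Dixon's critical value of 0.71. It was 1 of 20 groups of 5 libraries tested that exceeded it, and chance alone gives about 1 in 20. Library 1-2 also held the astrocyte-gated nucleus with 100 UMIs of the list.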

How the results depend on the processing

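Library sets alone and the removal of nuclei with 10 or more UMIs of the list were alternatives chosen after seeing the data. The ratio to excitatory-gated nuclei was 7.65 for microglia in library set 2 alone and 8.43 for endothelium without nuclei of 10 or more UMIs. The vector ratio was reversed, at 0.633, when every kept nucleus was used, gated or not, which adds nuclei of all types; the cause was not tested. For ATAC regions, DESeq2 called 2 (30.6% of all regions), and without a filter on low counts 0 of 44 were called by edgeR (3.43% of 310118 regions), where more regions were tested; the cause of the DESeq2 difference was not tested. With each library left out in turn, ratios were 15.2 to 18.3 (microglia), 14.2 to 15.1 (endothelium), 5.42 to 6.36 (astrocytes), 1.54 to 1.90 (vector) and 1.03 to 1.1 (library sets, excitatory-gated). Gene counts were 34 to 36 (microglia) and 35 to 37 (endothelium), for which no share of all genes is given here. With each ATAC sample left out in turn, ATAC calls were 3 to 10. The replicate block, fitted for ATAC although the numbers did not pair the samples, gave 7 calls. All other alternatives run kept the direction of the 5 ratios. Depth limits the neuronal levels, many of which rest on under 50 UMIs.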
